A study of Rattus norvegicus with 2 samples.

Results

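Astrocytes are the glial cells whose fine processes wrap synapses, take up transmitter and potassium, and contact blood vessels. The genes described here are 10 commonly used to mark them: Gfap, Aqp4, Gja1, Acsl6, Ptprz1, Cst3, Fabp7, Aldoc, Vim and Sparcl1. Every probe set whose only gene symbol in the array's annotation was a member was taken. That gave 12 of the 8740 non-control probe sets, for 9 of the 10 genes, out of 4736 genes with a single-symbol probe set in all. Gfap, the intermediate filament protein of astrocytes, had no probe set by this rule and was not analysed here.

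The study set RNA of hippocampal synaptosomes against RNA of the total hippocampus, asking which mRNAs are enriched at the synapse. Synaptosomes are pinched-off nerve endings with attached postsynaptic membrane, purified biochemically from homogenised tissue. Both samples came from Sprague Dawley rats at postnatal day 70, and each was measured on 1 array. The labels give neither the number of animals nor whether they were pooled. Without replicates no test between the samples was possible, so the values below describe these 2 RNA samples. In bulk RNA, fewer cells or processes of a type cannot be told apart from less RNA in each.

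As background, most mRNA of an astrocyte lies in its cell body, but part is carried into the peripheral processes that surround synapses. Synaptosome preparations are known to retain some of these processes, often resealed, together with myelin fragments and other debris. None of the 10 genes is exclusive to astrocytes: Fabp7 and Ptprz1 are also made by oligodendrocyte precursors, Cst3 by microglia, and Vim by vascular and meningeal cells.

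The astrocyte genes with clear signal were, relative to all mRNAs on the array, about as abundant in synaptosomal RNA as in total hippocampal RNA. Aqp4, Fabp7, Cst3, Sparcl1 and Aldoc had log2 ratios between -0.49 and 0.83 over their 7 probe sets, and none reached 2-fold. Acsl6 and Ptprz1 read higher in synaptosomes, by 3.38-fold and 2.27-fold, but their hippocampus signals were too dim to establish a difference or its size. Gja1 and Vim read lower in synaptosomes and were dim on both arrays.

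Signals are the authors' linear intensities, which were already scaled to a common mean. Signals under 846, the median of all pooled non-control signals, were set to that floor before log2 was taken. Each log2 ratio is synaptosomes minus total hippocampus, centred by adding 0.17 so that the median of probe sets past a filter on level was 0. All 12 probe sets passed the filter. Where 1 array was at the floor the fold is written "at least", taking the other signal at face value. Negative signals show the scatter around background, and the 95th percentile of their size was 2912.6 for synaptosomes and 5280.25 for the total hippocampus. Signals under these noise limits are uncertain, and a bound resting on them is not a guaranteed minimum. Replicate error being unknown, ratios are read against how far probe sets of the same gene disagreed. The SD of their log2 ratios within a gene was 0.90 over 658 genes, and 0.53 over the 155 genes with several probe sets above the noise limits on both arrays. This leaves out animals, preparations and amplification.

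**Figure D1:**
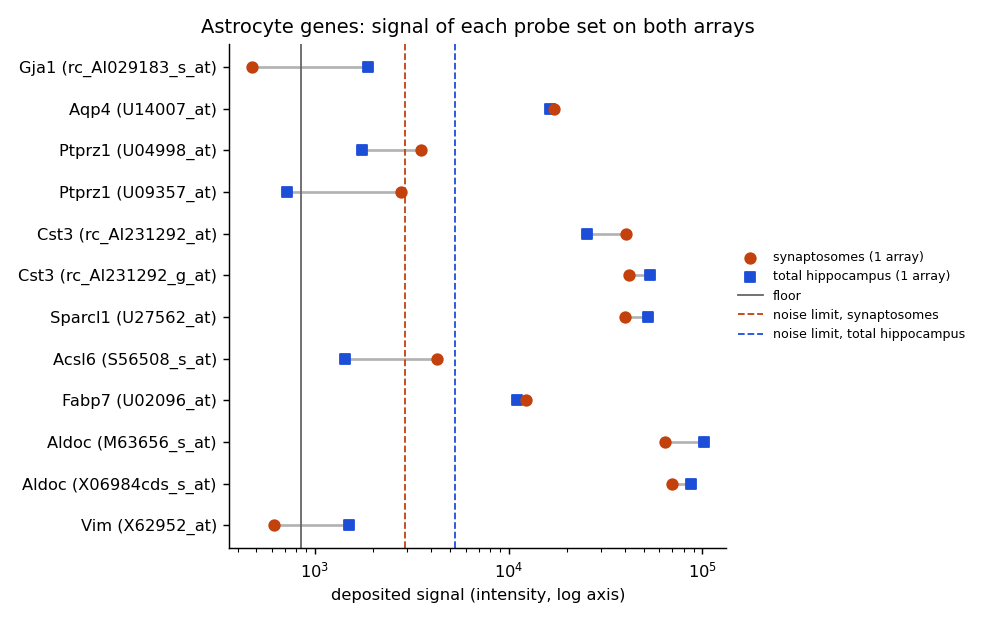
Deposited signal (intensity, log axis) of the 12 astrocyte probe sets, with circles for the synaptosome array and squares for the total hippocampus array, 1 array each. The solid line is the floor of 846 and the dashed lines are the noise limits of 2912.6 (synaptosomes) and 5280.25 (total hippocampus). The 7 probe sets of Aqp4, Cst3, Sparcl1, Fabp7 and Aldoc lie right of all lines on both arrays, and the other 5 do not.

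Among membrane proteins, Aqp4 encodes the water channel of astrocytic endfeet. Its probe set U14007_at read 17092 in synaptosomes, against 16326 in the total hippocampus. The log2 ratio was 0.24, or 0.07 without centring, well inside either SD. The same probe set stood at percentile 94.97 of the synaptosome array and 94.3 of the hippocampus array, so its rank was nearly the same in both samples.

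Gja1 encodes connexin 43, the main gap junction protein of astrocytes. It read 475 in synaptosomes, against 1880 in the total hippocampus. The synaptosome signal was under the floor, which gives at least 1.97-fold lower with centring and at least 2.22-fold without. Its percentile was 40.9 among synaptosome signals and 65.8 among hippocampus signals. Both signals were under the noise limits of their arrays, so this pair of readings does not establish that the mRNA was measured in either sample.

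Ptprz1 encodes a receptor-type tyrosine phosphatase that is also released in a shed or spliced form as the proteoglycan phosphacan. Probe set U04998_at read 3541 in synaptosomes, against 1754 in the total hippocampus, giving a log2 ratio of 1.18. With the floor raised to 2798.5 it was 0.42, under 2-fold. Probe set U09357_at read 2795 in synaptosomes, against 723 in the total hippocampus, where it was under the floor, and is at least 3.72-fold higher. Both probe sets read higher in synaptosomes, and their log2 ratios lay 0.71 apart. Neither hippocampus signal reached that array's noise limit, and of the synaptosome signals only 3541 exceeded its own. A difference was therefore not established.

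Cst3 and Sparcl1 encode secreted proteins. Cst3 is cystatin C, an inhibitor of cysteine proteases, and was read by a pair of probe sets on the same source sequence. Probe set rc_AI231292_at read 40209 in synaptosomes, against 25452 in the total hippocampus, giving a log2 ratio of 0.83. Probe set rc_AI231292_g_at read 41580 in synaptosomes, against 53800 in the total hippocampus, giving a log2 ratio of -0.20. The pair thus pointed opposite ways, 1.03 apart on the log2 scale, although each signal was far above the noise limit. The ratio of 0.83 exceeded the SD of bright probe sets, 0.53, but not the wider one, and reached 1.07 under the lowess correction on level. The synaptosome signals were close to each other and the hippocampus signals were not.

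Sparcl1, or hevin, is an astrocyte-secreted matrix protein that promotes excitatory synapse formation. It read 39930 in synaptosomes, against 52444 in the total hippocampus. The log2 ratio was -0.22, less than the SD between probe sets. It stood at percentile 98.3 among synaptosome signals and 98.1 among hippocampus signals.

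Acsl6 and Fabp7 act on fatty acids. Acsl6 activates long-chain fatty acids to their coenzyme A esters, and is also expressed by neurons. It read 4278 in synaptosomes, against 1426 in the total hippocampus, giving a log2 ratio of 1.76 or 3.38-fold with centring. Its synaptosome signal exceeded the noise limit and its hippocampus signal did not, so a difference was not established. With the floor raised to 2798.5 the log2 ratio was 0.70, under 2-fold.

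Fabp7 is the brain fatty acid binding protein, known from radial glia and astrocytes. It read 12290 in synaptosomes, against 11112 in the total hippocampus. The log2 ratio was 0.32, or 0.15 without centring. Like Aqp4, it kept nearly the same rank, at percentile 93.1 of the synaptosome array and 92.3 of the hippocampus array.

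Aldoc encodes aldolase C, the brain form of a glycolytic enzyme, abundant in astrocytes and in some neurons such as cerebellar Purkinje cells. Probe set M63656_s_at read 64325 in synaptosomes, against 101688 in the total hippocampus, giving a log2 ratio of -0.49. Probe set X06984cds_s_at read 69475 in synaptosomes, against 87045 in the total hippocampus, giving a log2 ratio of -0.16. Both read lower in synaptosomes, by less than the SD, and their log2 ratios differed by 0.34. Their percentiles ran the other way, 99.8 and 99.9 on the synaptosome array against 99.4 and 99.1 on the hippocampus array. The direction for Aldoc therefore depended on the scaling: quantile normalization, which equalises the spread of signals, gave log2 ratios of 0.53 and 0.96, and a lowess correction on level gave 0.30 and 0.61.

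Vim encodes vimentin, the other intermediate filament gene of the set. It read 614 in synaptosomes, under the floor, against 1510 in the total hippocampus, which is at least 1.59-fold lower. As with Gja1, both signals were under the noise limits, so neither presence nor a difference was established.

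**Figure D2:**
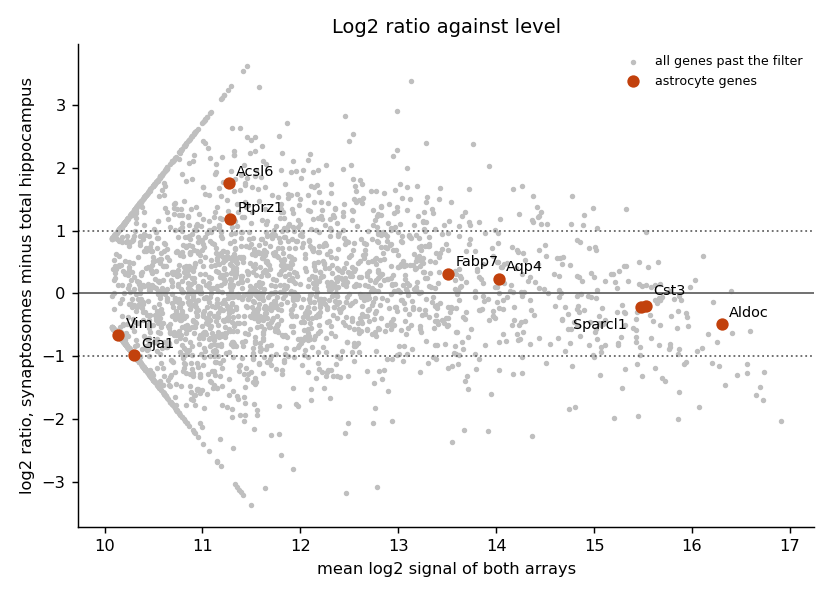
Log2 ratio (synaptosomes minus total hippocampus, centred) against the mean log2 signal of both arrays for 2735 genes past the filter, each by its probe set with the highest mean level. The 9 astrocyte genes are marked, dotted lines show 2-fold, and the slanted edges are genes at the floor on 1 array. Acsl6 at 1.76 and Ptprz1 at 1.18 lie above the upper dotted line at low level, and the 5 bright genes lie within -0.49 to 0.32.

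By gene, with the probe set of highest mean level, 2 of the 9 were at least 2-fold higher in synaptosomes, 0 were lower by 2-fold or more and 7 lay between. Of all 2735 genes past the filter, 19.1% were higher by 2-fold or more, 14.3% were lower by as much and 66.6% lay between. The astrocyte count of higher genes was near that background. The median log2 ratio of the 9 genes was -0.20, against 0.00 over all genes past the filter. Gja1 and Vim, among the 5 of 9 genes below 0, passed the filter only through their hippocampus signals. Over the 7 genes that exceeded the floor in both samples the median was 0.24, and it was above 0 in 6 of 10 alternatives, so its sign was not settled. Summed over the 12 probe sets, the signal was 296604 in synaptosomes and 355160 in the total hippocampus. This was 0.959% of all positive non-control signal in synaptosomes and 0.844% in the total hippocampus.

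Within the set, the ratios parted by brightness. The 5 genes above the noise limits on both arrays were all less than 2-fold apart, as were 81.9% of the 746 genes of the whole array that met the same condition. Of those 746, 7.91% were higher and 10.2% lower by 2-fold or more. The median of the 5 bright genes was -0.20, against -0.11 over the 746. The other 4 genes, Acsl6, Ptprz1, Gja1 and Vim, held both the highest and the lowest ratios of the set. The scaling set the sign for some of the bright genes. The negative ratios of Sparcl1, of Aldoc and of the lower Cst3 probe set became positive under quantile normalization and under the lowess correction, while Aqp4, Fabp7 and the other Cst3 probe set stayed positive under all 5 scaling and floor alternatives.

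**Figure D3:**
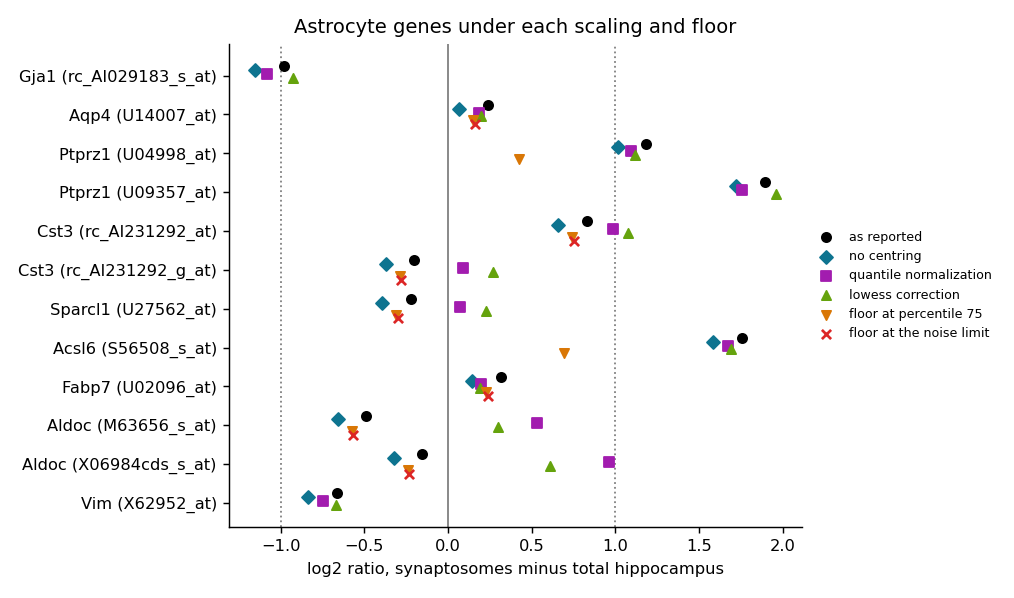
Log2 ratio (synaptosomes minus total hippocampus) of each astrocyte probe set as reported and under 5 alternatives, where a missing mark means that both signals were at the floor. Aldoc spans -0.66 to 0.96, Sparcl1 spans -0.39 to 0.23, and Aqp4 stays between 0.07 and 0.24.

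A wider list of 45 further astrocyte genes, drawn from general knowledge, had 30 genes on the array, of which 26 passed the filter. Of these, 6 were at least 2-fold higher in synaptosomes, 2 at least 2-fold lower and 18 lay between. That is 23.1% higher and 7.69% lower, against 19.1% and 14.3% of all genes past the filter. The higher count was 1 of 23 genes with the floor at percentile 75 and 1 of 16 with the floor at the noise limit. The share over all genes was not taken at these floors. Above the noise limits on both arrays the count was 2 of 16, beside 7.91% of all 746 such genes. The median log2 ratio of the 26 genes was 0.41, against 0.00 over all genes past the filter. Fgfr2 and Ncan were at the floor on both arrays with every probe set. Without centring the median was 0.24.

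Glul, glutamine synthetase, which turns transmitter glutamate into glutamine in astrocytes, had 4 probe sets above the noise limits on both arrays. Their log2 ratios lay between -0.17 and 0.35, with the sign of 3 of the 4 depending on the scaling. The brightest read 40687 in synaptosomes, against 51347 in the total hippocampus. This near-equality resembled that of Aqp4 and Fabp7 in size.

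The glutamate transporters were less uniform. Slc1a3, or GLAST, was read by 4 probe sets at log2 ratios of 0.70, 0.66, 0.18 and -0.08, the brightest at 22795 in synaptosomes and 15800 in the total hippocampus. Slc1a2, or GLT-1, was read by 3 probe sets at log2 ratios of 1.24, -0.77 and -1.51, and the fourth was at the floor on both arrays. All signals of Slc1a2 were dim, with only 2982 in synaptosomes above its array's noise limit. Its direction was therefore not settled.

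S100b, a calcium-binding protein of astrocytes, read 61538 in synaptosomes, against 27401 in the total hippocampus. That is 2.53-fold higher, with a log2 ratio of 1.34 that lay between 1.17 and 1.87 under the other scalings, more than either SD. Its other probe set was negative on both arrays. Aldh1l1, a folate enzyme used as an astrocyte marker, had signals of 1741 in synaptosomes and 1580 in the total hippocampus, both dim.

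The other genes named for a high ratio in the wider list were dim in the hippocampus. Adcyap1r1, the PACAP receptor, was at least 3.71-fold higher with the only one of its 3 probe sets above the floor. Its synaptosome signal of 2788 was also under the noise limit, so neither presence nor a difference was established. Tnc, tenascin C of the extracellular matrix, was 3.20-fold higher by 1 probe set, while another was lower by at least 1.14-fold. Dio2, the deiodinase that activates thyroid hormone, was 2.33-fold higher. Hippocampus signals of 22, 1361 and 1879 stood behind these folds. The other 2 genes past 2-fold, named after their values were seen, were Entpd2, an ATP-degrading ectoenzyme, and Slc4a4, a sodium bicarbonate cotransporter. Entpd2 read 3581 in synaptosomes, against 1916 in the total hippocampus. Slc4a4 read 10845 in synaptosomes, against 5893 in the total hippocampus, above both noise limits. Each was within 2-fold without centring, with log2 ratios of 0.90 for Entpd2 and 0.88 for Slc4a4.

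At the other end, Mt3, a brain metallothionein, read 48547 in synaptosomes, against 117667 in the total hippocampus. That is 2.15-fold lower, and less than 2-fold under quantile normalization and under the lowess correction, with log2 ratios of -0.38 and -0.36. Apoe, the lipid carrier, was 1.82-fold lower with its brighter probe set and 3.82-fold higher with the other, whose hippocampus signal of 3543 was under the noise limit. The brighter Apoe probe set had log2 ratios of -1.04 without centring, -0.20 under quantile normalization and -0.16 under the lowess correction. Slc6a11, the GABA transporter GAT-3, was 1.97-fold lower on dim signals, or 2.21-fold lower without centring.

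Markers of other cells that a synaptosome preparation could hold were read in the same way, and their part in the astrocyte values was not tested. Of 15 neuronal genes past the filter, 2 were at least 2-fold higher in synaptosomes and 3 at least 2-fold lower, with a median of 0.35. These are 13.3% and 20.0%, beside 19.1% and 14.3% of all genes past the filter. Gad2, which makes GABA, was highest at 2.27-fold on signals under the noise limits, and Snap25, a synaptic fusion protein, was lowest at 2.96-fold lower with its brightest probe set. That Snap25 probe set had log2 ratios of -1.03 under quantile normalization and -0.96 under the lowess correction. All 4 Snap25 probe sets read lower in synaptosomes. AB003991_g_at, at -1.79, had -1.33 and -1.23 under these corrections, and AB003992_s_at, at -1.20, had -1.18 and -1.15. The remaining probe set, U56261_s_at, was at -0.74 on signals under the noise limits. The summed neuronal signal was 369840 in synaptosomes and 540890 in the total hippocampus, with Slc17a7 at the floor on both arrays. That sum was 1.196% of all positive non-control signal in synaptosomes and 1.286% in the total hippocampus.

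Oligodendrocyte genes ranged from -2.23 to 2.57, against -0.98 to 1.76 for the 9 astrocyte genes, and this difference in spread was not tested. Of 8 past the filter, 2 were at least 2-fold higher in synaptosomes and 3 at least 2-fold lower, or 25.0% and 37.5% beside the 19.1% and 14.3% of all genes. Their median was -0.13, and -1.04 without suffixed probe sets. Mbp, a major myelin protein, read 1535 in synaptosomes, under the noise limit, against 8123 in the total hippocampus, and was 4.70-fold lower. Mobp and Mog, named after their values were seen, were the others at least 2-fold lower. Their probe sets of highest mean level were above the noise limits on both arrays, and were 3.55-fold lower for Mobp and 2.49-fold lower for Mog. Mal, another myelin protein, had a log2 ratio of -0.19, and Pdgfra, of oligodendrocyte precursors, was at least 5.95-fold higher with 1 of its 4 probe sets, the others being at the floor. The summed oligodendrocyte signal was 51629 in synaptosomes and 98530 in the total hippocampus. As a share of all positive non-control signal this was 0.167% in synaptosomes and 0.234% in the total hippocampus.

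Of 12 vascular and meningeal genes past the filter, 0 were at least 2-fold higher in synaptosomes and 4, or 33.3%, at least 2-fold lower, beside 19.1% and 14.3% of all genes past the filter, with a median of -0.15. The lower count was 1 of 9 genes with the floor at percentile 75 and 0 of 2 above the noise limits, too few to compare with all genes. Kdr, an endothelial receptor, was at least 4.09-fold lower on signals under the noise limits. Slc2a1, the glucose transporter of brain endothelium, was 1.84-fold higher by the brighter of a pair, from a hippocampus signal under the noise limit. Ptgds had a log2 ratio of -0.13. The summed vascular and meningeal signal was 69559 in synaptosomes and 86313 in the total hippocampus, with Tagln and Vwf at the floor on both arrays. As a share of all positive non-control signal this was 0.225% in synaptosomes and 0.205% in the total hippocampus. Hbb, of red blood cells, read 6811 in synaptosomes, against 35126 in the total hippocampus, 4.58-fold lower, and Alas2, which starts haem synthesis, had a log2 ratio of -0.09. Ttr, of the choroid plexus, was 1.49-fold and 5.30-fold lower with its pair of probe sets, the larger fold on signals under the noise limits. Kl was at least 2.38-fold higher on 1791 in synaptosomes and 33 in the total hippocampus, both under the noise limits. Foxj1 was at the floor on both arrays.

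Microglial genes were mostly dim, with 3 of 10 past the filter and C1qc, Csf1r and Itgam at the floor on both arrays. The median of the 3 was 0.63, and 0 were 2-fold apart in either direction, beside 19.1% higher and 14.3% lower of all genes past the filter. Only 1 was above the noise limits on both arrays, and 1 was 2-fold higher with the mean over probe sets. Aif1 was 1.97-fold higher in synaptosomes with its brightest probe set and 6.70-fold higher with another, whose hippocampus signal of 1267 was under the noise limit. Ptprc was at least 1.60-fold lower on signals under the noise limits. The summed microglial signal was 26712 in synaptosomes and 15306 in the total hippocampus. As a share of all positive non-control signal this was 0.0864% in synaptosomes and 0.0364% in the total hippocampus.

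**Figure D4:**
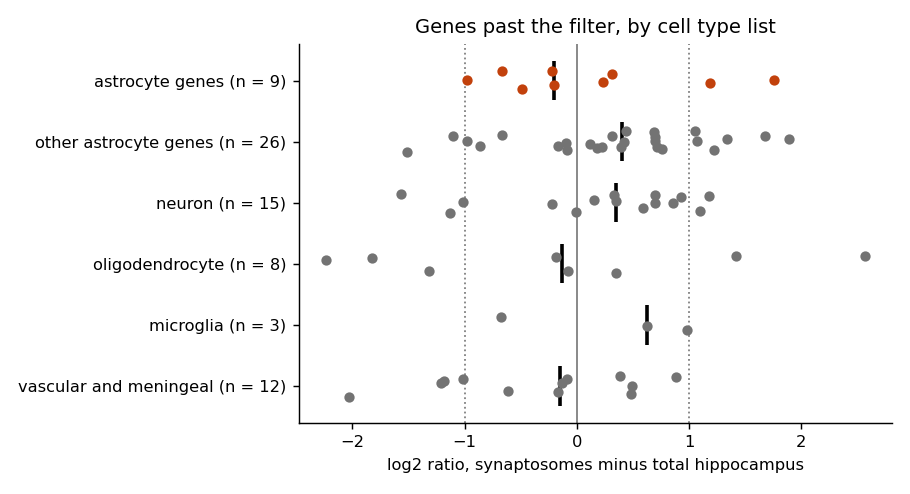
Log2 ratio (synaptosomes minus total hippocampus, centred) of genes past the filter in each cell type list, 1 point per gene, with a bar at the median and dotted lines at 2-fold. The 9 astrocyte genes lie between -0.98 and 1.76 with a median of -0.20, and the 8 oligodendrocyte genes between -2.23 and 2.57.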

How the data were processed

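Per the labels' protocols, column-purified total RNA was copied and amplified with the SMART kit, starting from oligo(dT) joined to T7 sequence, and in vitro transcription gave the biotinylated cRNA that was hybridised. The authors' deposited values are linear intensities for 8799 probe sets, 59 of them controls. The software, background correction and scaling behind them are not named in the sources used here. Of the non-control intensities, 25.2% in synaptosomes and 31.4% in the total hippocampus did not exceed 0. The mean without the lowest and highest 2% was 2500 on both, so no further scaling preceded centring. With 1 array per group, precision is limited by their number.

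Signals were floored at percentile 50 (846), log2 was taken, and ratios were centred. The filter was a mean log2 level of at least 10.07, which 4370 probe sets passed. Symbols came from the platform's annotation: 7006 non-control probe sets had 1 symbol, 308 several, and 1426 are unnamed here. Of 7018 probe sets with 1 symbol, controls included, 6994 matched the GRCr8 RefSeq gene table, which changed 0 symbols. Probe sets with _s, _f, _r, _i or _g in the name can match several transcripts.

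The members and lists were chosen with earlier results of these data known. Named were all members, the 4 highest and 4 lowest of the other astrocyte genes with Slc1a2, Slc1a3, Glul, S100b and Aldh1l1, and the highest, lowest and brightest gene of each other list. Python 3.11.15, NumPy 2.4.6, pandas 2.3.3, statsmodels 0.14.6 and matplotlib 3.10.9 were used, and the calculation was tested on simulated data.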

Additional observations from a re-analysis of the deposited data

How the results depend on the processing

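No paired analysis was possible because each group had 1 array, and no replicate could be left out. The median log2 ratio of the astrocyte genes lay between -0.37 and 0.28 over 10 alternatives, above 0 in 6 of them and below 0 in 4, against -0.20 as reported. Their count at least 2-fold higher was 0 of 7 genes with the floor at percentile 75 (2798.5) and 0 of 5 with the floor at the noise limit of 5280.25. It was 0 of 5 above the noise limits on both arrays (an alternative chosen after seeing the data) and 1 of 6 without suffixed probe sets. Their count at least 2-fold lower was 1 without centring and 1 with quantile normalization, which is Gja1.

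For the other astrocyte genes the higher count was 1 of 23 with the floor at percentile 75 and 1 of 16 at the noise-limit floor. It was 2 of 19 without suffixed probe sets and 2 of 16 above the noise limits. Their lower count was 4 without centring and 1 with either raised floor, the lowess correction, the mean over probe sets, no suffixed probe sets, or above the noise limits. Their median stayed between 0.13 and 0.50.

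The neuronal higher count was 1 with either raised floor, without centring and above the noise limits, and the lower count was 1 with the lowess correction. The oligodendrocyte higher count was 1 with the floor at percentile 75 and 1 above the floor on both arrays. It was 0 at the noise-limit floor and 0 above the noise limits, and the lower count was 1 at the noise-limit floor. The oligodendrocyte median was -1.04 without suffixed probe sets. The microglial higher count was 1 with the mean over probe sets. The vascular and meningeal lower count was 1 of 9 genes with the floor at percentile 75 and 0 of 3 at the noise-limit floor. It was 0 of 2 above the noise limits and 2 of 12 with the mean over probe sets. Raised floors and the noise limits leave fewer genes, and the cause of the other shifts was not tested. No share over all genes was taken at the raised floors, so counts there cannot be set against the whole array. Signal over background limits Acsl6, Ptprz1, Gja1 and Vim.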
